A study of Picea abies with 36 samples.

Results

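Applied auxin, applied cytokinin and both together each raised a shared set of genes in the hypocotyl, the stem below the seed leaves, of Norway spruce (Picea abies) seedlings. The set holds 200 gene models whose mean level was at least 4-fold above the Mock mean under each of the 3 treatments. A level is the mean, over the 9 libraries of a treatment, of CPM, the reads of a gene model per 1000000 reads counted in its library. The comparison with Mock was log2 of the ratio of treated to Mock means after adding 0.5 CPM to each, and it had to reach 2 with BAP, with IAA and with BAP+IAA. Of 70736 gene models, 34471 had a mean of at least 1 CPM under a treatment or Mock, and 223 of these passed all 3 limits. The 200 with the largest value of their weakest response were kept. The members were thus chosen by their differences from Mock, all of which are given as a description without a test.

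The seedlings were about 2 weeks old when lanolin was put once on the middle of the hypocotyl. It carried 135 mM BAP (6-benzylaminopurine, a synthetic cytokinin), 50 mM of the natural auxin IAA (indole-3-acetic acid), or both at those concentrations, and the controls are labelled Mock. Hypocotyls were collected 5, 10 and 15 days later, with 3 libraries in each of the 12 groups and 36 libraries in all, of 12531117 to 22280720 counted reads. The labels do not say whether the 3 libraries came from separate plants or pools, so the p-values below speak only of how these libraries varied. In whole tissue, more cells of a type and more RNA per cell cannot be told apart.

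Both hormones act through well-described pathways, known mainly from Arabidopsis. Auxin is bound by TIR1/AFB receptors, which send Aux/IAA repressors for degradation and free ARF transcription factors to act on early auxin genes. Cytokinin is bound by membrane histidine kinases, and a phosphorelay passes the signal to response regulators in the nucleus. Each hormone also changes the synthesis, transport or breakdown of the other, and cambium, vascular tissue and new lateral organs are among the sites where both act. The identifiers here carry no gene names in the files used, so members are given by identifier, no role is stated for any of them, and neither the tissue label nor any hormone pathway could be checked against known genes.

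The choice was narrow. A log2 response of at least 2 was found in 1.58% of the 34471 gene models with BAP, 4.28% with IAA and 4.04% with BAP+IAA, and in all 3 in 0.647%. The last members kept were MA_56308g0010 and MA_10434201g0010, with weakest responses of 2.08 and 2.07 on the log2 scale. The first gene models left out by the limit of 200 had 2.07 and 2.07, and the last to pass all 3 limits had 2.01. The nearest that failed had 2.00 and 2.00 after rounding, both just under the limit with BAP. The values ran on without a gap across both edges of the set.

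In Mock hypocotyls these were mostly low-level genes, which the choice favoured, because the Mock mean is the divisor in all 3 responses. The median member had a Mock mean of 1.29 CPM, against 6.95 CPM for all 34471 gene models, and the median Mock level of the members stood at percentile 14 of that distribution. Reads were nevertheless present: every member had at least 1 Mock read, the median was 177 reads over the 9 Mock libraries, and 130 members had reads in all 9. A total of 20 members had fewer than 20 Mock reads, so the size of their response depends on the 0.5 CPM added to both means. That dependence was not limited to them, as the lower quartile of the members' Mock means was 0.484 CPM, less than the amount added. A level set by 3 reads was 0.135 to 0.239 CPM, depending on the library.

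Under treatment the median member stood at 14.2 CPM with BAP, 30.4 CPM with IAA and 32.5 CPM with BAP+IAA. The median response was 2.77 on the log2 scale with BAP (6.83-fold), 3.68 with IAA (12.9-fold) and 4.10 with BAP+IAA (17.2-fold), where the medians over all 34471 gene models were 0.09, 0.00 and 0.04. Treated and Mock libraries did not always separate. All 9 BAP libraries lay above all 9 Mock libraries for 66 of the 200 members, where 7.12% of the 34471 gene models met the same condition. The count was 160 members with IAA, where 7.56% of all met it, and 178 with BAP+IAA, where 12.2% did. Likewise, a percentage of all beside a later count of members is the share of all gene models that met the same condition. For 56 members all 27 treated libraries lay above every Mock library, a condition that 1.7% of all gene models met.

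Over the 27 treated libraries together, the library with the most signal held a median of 11.4% of a member's summed CPM, and 35.7% at most. This share does not show whether 1 library carried the 9-library mean of a single treatment. When any 1 library was left out, at least 185 of the 200 members still passed the limits. The first part of the identifier, before the letter g, was shared with another gene model of at least 1 CPM by 18 members (9%), and by 10.9% of the 34471 gene models; 10 members shared it with another member. The counts do not show whether reads were divided between near-identical copies or overlapping models, and the strand setting of the counting is not given in the sources used here.

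MA_19953g0020 had the strongest weakest response, 5.93 on the log2 scale, which was its response to BAP. Its 3 Mock libraries read 0, 0 and 0.674 CPM at 5 days, 25.1, 7.94 and 0.392 CPM at 10 days, and 2.14, 0.313 and 1.196 CPM at 15 days. The BAP libraries of 5 days read 0.399, 7.82 and 63.1 CPM, those of 10 days 40.6, 207 and 654 CPM, and those of 15 days 282, 722 and 592 CPM. The replicates of BAP at 5 days were spread from the Mock range to far above it, and at 15 days all 3 were above every Mock library. With IAA it read 45.0, 9.96 and 35.6 CPM at 5 days and 996, 763 and 1203 CPM at 15 days. With both hormones it was already at 155, 877 and 426 CPM at 5 days and reached 1056, 1215 and 1227 CPM at 15 days. This gene model thus reached a high level in all 3 treatments, and stood highest at the first collection under the combination.

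Unlike MA_19953g0020, which rose with IAA, the member next in rank, MA_128094g0010, fell with IAA. Its BAP libraries read 413, 358 and 431 CPM at 5 days and 356, 240 and 339 CPM at 15 days. Its IAA libraries read 1086, 1312 and 971 CPM at 5 days and 252, 339 and 241 CPM at 15 days, and the groups did not overlap. Its Mock libraries lay between 0.615 and 34.9 CPM over the 3 days, below all 27 treated libraries. The fall with IAA was 2.02 on the log2 scale (log2 change -2.02 ± 0.63 SE, edgeR quasi-likelihood test, Benjamini-Hochberg adjusted p = 0.013), and the change with BAP, -0.38 ± 0.61, did not pass (edgeR adjusted p = 0.72). With BAP+IAA the change was -1.23 ± 0.62, which also did not pass (edgeR adjusted p = 0.17). In Mock the change from 5 to 15 days was -1.53 ± 0.70, which did not pass either (edgeR adjusted p = 0.31). Whether the change with IAA differed from that in Mock was not tested.

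MA_10103038g0010 had the highest mean level of the members over the 27 treated libraries, 2356 CPM. It read 668, 385 and 931 CPM with BAP at 5 days and 1539, 1966 and 2239 CPM at 15 days, so that the days did not overlap. With IAA it was 2669, 2815 and 2327 CPM at 5 days and 3349, 3119 and 2667 CPM at 15 days, where 1 of the 15-day libraries fell within the 5-day range. Its Mock libraries ranged from 33.3 to 317 CPM, and its change between days in Mock did not pass the test (1.09 ± 0.45 on the log2 scale, edgeR adjusted p = 0.25).

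**Figure D1:**
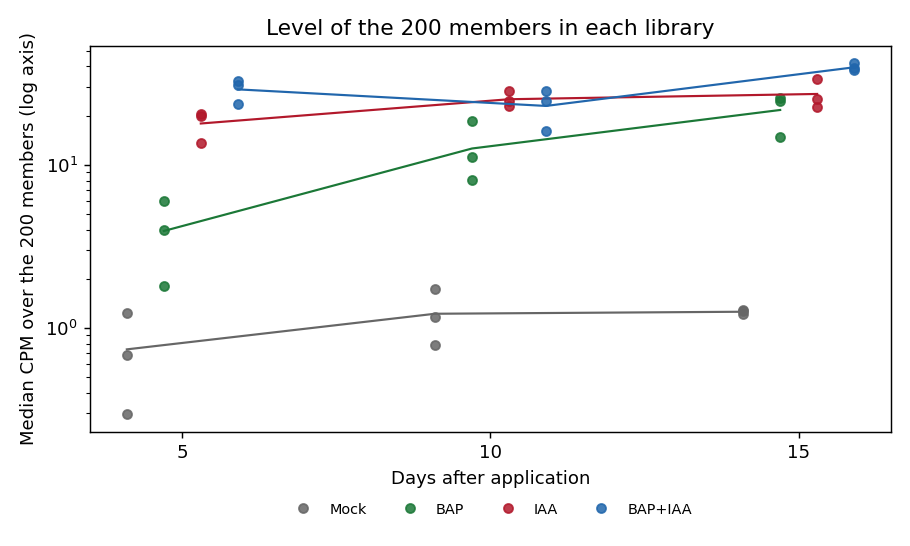
Median CPM of the 200 members in each of the 36 libraries (points, log axis) against days after application, by treatment; lines join the group means. The BAP libraries climb from 1.80, 3.97 and 6.02 CPM at 5 days to 14.9, 24.5 and 25.6 CPM at 15 days, while the BAP+IAA libraries are at 23.5 to 32.7 CPM already at 5 days and the Mock libraries stay at or below 1.72 CPM.

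The median level of the set followed a different course in each treatment, as the plot of library medians shows. With BAP the median member was 3.09-fold above Mock of the same day at 5 days, 6.53-fold at 10 days and 11.7-fold at 15 days. With IAA the corresponding medians were 11.9-fold, 11.3-fold and 12.1-fold, and with BAP+IAA 19.0-fold, 12.1-fold and 20.7-fold. A response of at least 2 on the log2 scale was reached with BAP by 72, 162 and 191 members on the 3 successive days. With IAA it was reached by 173, 175 and 178 members, and with BAP+IAA by 190, 181 and 198. Only 37 members reached it in all 9 combinations of treatment and day, although 195 were above Mock in all 9.

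The share of all counted reads taken by the set, a sum in which abundant members weigh most, did not follow the median member in every treatment. The 200 members took 0.0642% ± 0.0337 (SD, n = 3) of Mock reads at 5 days, and 0.0811% ± 0.0264 and 0.0887% ± 0.0140 on the later days. The BAP share was 0.389% ± 0.103, 0.995% ± 0.404 and 1.54% ± 0.429 over the same course. With IAA it was 1.72% ± 0.0815, 3.32% ± 0.122 and 3.19% ± 0.141, and with BAP+IAA 2.16% ± 0.192, 1.72% ± 0.271 and 2.04% ± 0.138. With IAA the share was higher at 10 and 15 days than at 5 days, whereas the median fold over Mock stayed between 11.3 and 12.1. On those later days the IAA share also exceeded the BAP+IAA share. At 15 days the median fold was nevertheless higher with BAP+IAA, at 20.7 against 12.1 with IAA. At 10 days the median folds were close, at 12.1 with BAP+IAA and 11.3 with IAA, and the median ratio of BAP+IAA to IAA was 0.93. The spread between replicates was widest, relative to the mean, in Mock at 5 days and in BAP at 10 days.

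The combination was most often the strongest treatment. The highest of the 3 treatment means was that of BAP+IAA for 110 members, IAA for 81 and BAP for 9. IAA gave a higher mean than BAP for 140 members, and a mean more than 4-fold higher for 51, against 2 members with BAP more than 4-fold above IAA. The combination divided by the higher of the single-hormone means had a median of 1.12 and quartiles of 0.531 and 1.98. It lay within 1.5-fold of the higher single hormone for 67 members, above 2-fold for 50 and below 0.5 for 45. The combination mean lay between the single-hormone means for 81 members and below both for 9. In these 81 and 9 members, adding BAP to IAA, or IAA to BAP, went with less than the stronger hormone alone gave. The rise above Mock with both hormones exceeded the sum of the single rises for 71 members.

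**Figure D2:**
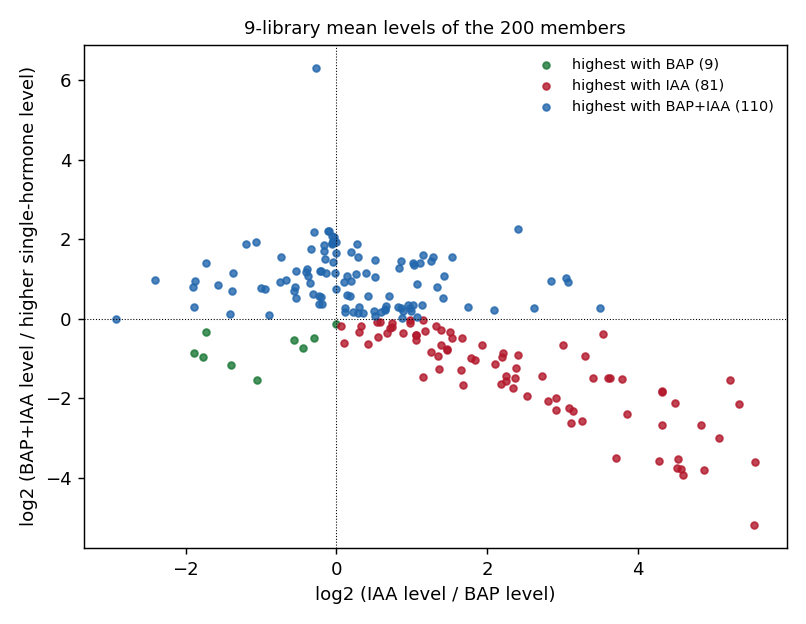
Each point is 1 of the 200 members: the horizontal axis is log2 of its IAA mean over its BAP mean, and the vertical axis log2 of its BAP+IAA mean over the higher single-hormone mean (9 libraries each, no test), coloured by the treatment with the highest mean. Points above 0 on the vertical axis are the 110 members highest with BAP+IAA, and the members to the far right lie mostly below it.

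The extremes of that ratio show how unlike the members were. MA_7216485g0010 had the smallest ratio, 0.0273: its means were 2.66 CPM with BAP, 124 CPM with IAA and 3.38 CPM with both, against 0.0286 CPM in Mock, where it had 4 reads in 2 of 9 libraries. MA_140902g0010, singled out after its values were seen, had the largest, 80.0. It read 47.9, 24.4 and 14.4 CPM with BAP+IAA at 5 days, 324, 906 and 487 CPM at 10 days, and 274, 162 and 275 CPM at 15 days. With BAP alone its libraries lay between 0.135 and 22.2 CPM and with IAA alone between 0 and 6.96 CPM, below every 10-day and 15-day library of the combination. Its means with BAP, 3.49 CPM, and IAA, 2.91 CPM, were still enough to place it in the set, against 0.283 CPM in Mock. Most of that BAP mean came from the highest BAP library, at 22.2 CPM. The BAP response of this member, and with it its place in the set, thus rested largely on that library.

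Early, the order among treatments was clearest. At 5 days BAP gave the lowest of the 3 treatment means for 176 members, and at 15 days for 93. All 3 BAP+IAA libraries lay above all 3 BAP libraries at 5 days for 163 members (17.9% of all gene models) and below them for 2 (23.1% of all). All 3 IAA libraries lay above all 3 BAP libraries for 143 members (19.9% of all) and below for 8 (27.7% of all). At 10 days the BAP+IAA libraries were all above the BAP libraries for 66 members (14.4% of all) and below for 6 (22.7% of all), and the IAA libraries all above for 82 (19.8% of all) and below for 19 (31.2% of all). By 15 days the BAP+IAA libraries were all above the BAP libraries for 96 members (13.7% of all) and below for 6 (17.5% of all), and the IAA libraries all above for 70 (18.1% of all) and all below for 51 (26.5% of all). The median ratio of IAA to BAP was 3.80, 1.63 and 1.12 on the 3 successive days, so that BAP and IAA had come close for the median member at the last collection.

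The order of the combination and IAA alone changed between days. All 3 BAP+IAA libraries lay above all 3 IAA libraries for 88 members (18.4% of all) and below for 20 (14.1% of all). The same counts were 54 (24.4% of all) and 76 (19.6% of all) at 10 days, when IAA alone was more often the higher, and at 15 days for 89 (23.5% of all) and 54 (19.3% of all). The median ratio of the combination to IAA was 1.55, 0.93 and 1.39 at 5, 10 and 15 days. Levels under different treatments helped choose the members, so these orders are a description of the set.

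The change between days within a treatment was tested with edgeR's quasi-likelihood test over 38239 gene models with Benjamini-Hochberg adjustment at 0.05. All 200 members passed the filter on low counts. The rule averaged CPM over the days of the same libraries, so it did not set the direction of a day change, but the day test is not independent of it. A mean of CPM is carried by the highest day, and a member that reached the limit only through 1 day had to differ between days. With BAP, 72 members reached the limit at 5 days and 191 at 15 days, so the BAP counts in particular are partly a product of the choice. In the words used here a member rose or fell where it passed that test. The 10-day and 15-day comparisons of a treatment share its 5-day libraries.

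With BAP the larger part of the set rose as the days went on. From 5 to 15 days 157 members rose (12.1% of all tested gene models rose) and 4 fell (9.31% of all), with 39 not called. The median change of the 200 members was 2.31 on the log2 scale, or 4.97-fold, where the median of all tested was near 0 (-0.01). All 3 libraries of 15 days lay above all 3 of 5 days for 153 members (18.4% of all gene models) and below for 5 (16.5% of all). The number that fell was 2 without BAP 5 days replicate 2 or replicate 3, and 1 without BAP 15 days replicate 2. The highest BAP mean came at 15 days for 83% of members and for 36.7% of all gene models.

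By 10 days 72 members had risen with BAP (1.69% of all tested) and 1 had fallen (1.3% of all), and the median change was 1.72 on the log2 scale. This earlier count rested on few libraries: 73 members changed in all, and 18 without BAP 5 days replicate 1, 22 without BAP 5 days replicate 2 and 11 without BAP 10 days replicate 3. The fall was lost without BAP 5 days replicate 3 or BAP 10 days replicate 3. The replicates of BAP at 5 days were unlike each other, with member medians of 1.80, 3.97 and 6.02 CPM, and those at 10 days read 8.09, 11.1 and 18.5 CPM. Their part in the result was not tested.

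The 2 largest rises with BAP that met the naming rule started from near 0. MA_381956g0010 read 0, 0 and 0.203 CPM at 5 days, which was 3 reads, then 1.55, 1.27 and 14.2 CPM at 10 days and 5.88, 23.4 and 18.0 CPM at 15 days. The ratio of its depth-scaled reads at 15 days to those at 5 days was 228, with a 95% interval of 77.7 to 1108 that covers counting error only. Its fitted change was 7.66 ± 1.49 (SE) on the log2 scale, a size that depends on the fit's small added count (edgeR adjusted p = 0.00067). With IAA the same gene model was far higher, at 3.35, 6.46 and 16.0 CPM at 5 days and 380, 550 and 377 CPM at 15 days, and with both hormones it was at 27.2, 13.6 and 30.1 CPM at 15 days.

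MA_792979g0010 read 0, 0.0621 and 1.28 CPM with BAP at 5 days, 4.57, 2.66 and 21.0 CPM at 10 days, and 51.3, 50.3 and 52.7 CPM at 15 days. The 15-day libraries were nearly equal and far above the others, and the rise was 112-fold in depth-scaled reads (log2 change 6.77 ± 0.81 SE, edgeR adjusted p = 4.3e-06). With IAA it stayed low, between 1.33 and 8.92 CPM in the 9 libraries, and with BAP+IAA it went from 12.55, 10.9 and 7.18 CPM to 80.6, 46.2 and 65.0 CPM.

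Among the 4 members that fell with BAP, MA_139595g0010 went from 39.6, 62.9 and 61.8 CPM at 5 days to 2.36, 5.42 and 20.4 CPM at 15 days, a 5.93-fold fall in depth-scaled reads (log2 change -2.55 ± 0.70 SE, edgeR adjusted p = 0.010, and 0.056 without BAP 15 days replicate 2). It was also the only named member to fall in all 3 treatments, with log2 changes of -2.69 ± 0.69 with IAA (edgeR adjusted p = 0.0032) and -2.19 ± 0.68 with BAP+IAA (edgeR adjusted p = 0.022). The last call was lost without 1 of 4 libraries of BAP+IAA, at adjusted p = 0.063 and 0.0502 without 15 days replicates 1 and 2, 0.070 without 15 days replicate 3 and 0.061 without 5 days replicate 2 (edgeR). In Mock it read 7.12, 11.99 and 10.2 CPM at 5 days and 2.38, 1.38 and 6.51 CPM at 15 days, groups that did not overlap, although the Mock change of -1.55 ± 0.77 did not pass (edgeR adjusted p = 0.36). The second named fall, in MA_10298g0010 from 12.8, 30.2 and 43.6 CPM to 12.02, 1.56 and 6.05 CPM (-2.16 ± 0.70 on the log2 scale, edgeR adjusted p = 0.028), was lost without BAP 5 days replicate 2 or 3 (adjusted p = 0.057 and 0.121, edgeR) or BAP 15 days replicate 2 or 3 (adjusted p = 0.127 and 0.091, edgeR). In Mock the same gene model went from 0.462, 2.22 and 2.13 CPM to 0.244, 0 and 0.150 CPM. That change of -3.54 ± 1.46 did not pass (edgeR adjusted p = 0.25).

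**Figure D3:**
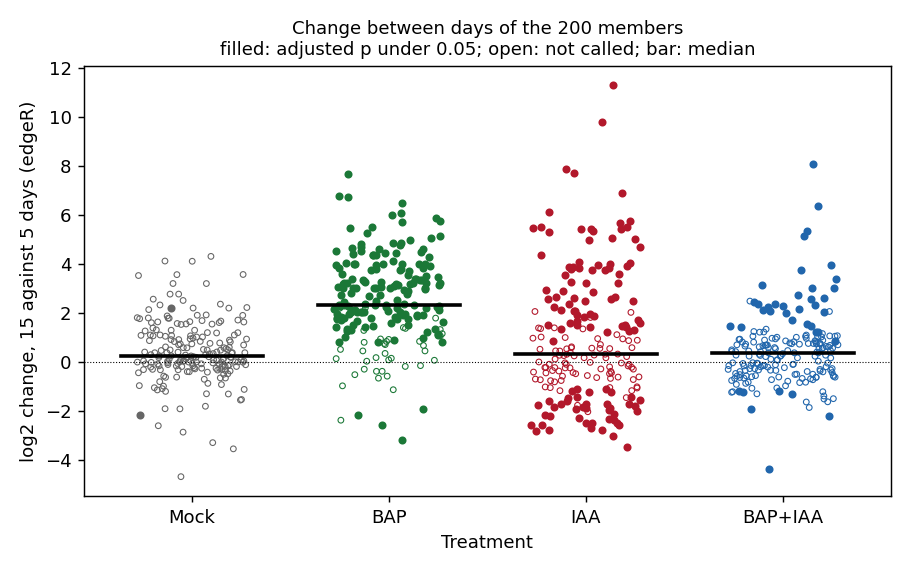
log2 change from 5 to 15 days (edgeR fit) of each of the 200 members in each treatment; filled points passed an adjusted p of 0.05, open points did not, and the bar is the median. The BAP points lie mostly above 0 with a median of 2.31, while the IAA points spread to both sides around a median of 0.32 and most BAP+IAA and Mock points are open.

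With IAA members changed in both directions, as gene models in general did. From 5 to 15 days 72 of the 200 members rose (21.3% of all tested) and 42 fell (16.7% of all), with 86 not called and a median change of 0.32 on the log2 scale. The share of members that fell was near that of all gene models, and the share that rose exceeded it by less than with BAP. At 10 days 66 had risen (16.4% of all) and 40 had fallen (12.3% of all). All 3 libraries of 15 days lay above those of 5 days for 90 members (26.6% of all gene models) and below for 59 (23.2% of all).

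Members that rose and members that fell with IAA also differed in their levels under the combination. Both lists were drawn from the results, so this is a description. The lists were sorted by the IAA libraries, which also enter the highest treatment mean and the ratio given below. Those values are therefore not independent of the sorting. The 72 that rose had a median of 8.08 CPM with IAA at 5 days and 72.2 CPM at 15 days, and with BAP+IAA of 16.6 CPM and 36.9 CPM. For 47 of them IAA gave the highest treatment mean, and the median ratio of the combination to the higher single hormone was 0.515. The 42 that fell had a median of 52.9 CPM with IAA at 5 days and 11.9 CPM at 15 days, and with BAP+IAA of 80.5 CPM and 51.6 CPM. For 41 of them BAP+IAA gave the highest treatment mean, with a median ratio of 2.34. With BAP both lists climbed, from 1.66 to 21.2 CPM in the first and from 8.04 to 22.31 CPM in the second.

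MA_7216485g0010 had the largest named rise with IAA. It had 6 reads in the 3 libraries of 5 days, at 0, 0.269 and 0 CPM, then read 42.6, 76.1 and 44.6 CPM at 10 days and 417, 151 and 383 CPM at 15 days. The ratio of 15 to 5 days in depth-scaled reads was 2637 (95% interval 1211 to 7187, counting error only), and the fitted log2 change was 11.30 ± 1.32 (SE, edgeR adjusted p = 3.6e-07). With both hormones it reached 17.7, 0.711 and 9.78 CPM at 15 days and with BAP 0.473, 6.50 and 2.22 CPM, below every IAA library of that day.

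MA_32541g0010 was among the 2 largest named rises both with IAA and with the combination. With IAA it had 2 reads in all at 5 days (0.145, 0 and 0 CPM) and 64.6, 27.9 and 34.5 CPM at 15 days, a ratio of 1076 with a 95% counting interval of 297.5 to 8891 (log2 change 9.79 ± 1.16 SE, edgeR adjusted p = 2.6e-07). With BAP+IAA it went from 0.273, 0.126 and 0.256 CPM to 78.5, 74.2 and 36 CPM (8.08 ± 0.93 SE, edgeR adjusted p = 1.0e-06). It differed from most of the set in being highest with BAP: 5.27, 1.55 and 14.1 CPM at 5 days, when both IAA treatments were at or below 0.273 CPM, and 125, 182 and 177 CPM at 15 days. Its Mock libraries read between 0 and 0.562 CPM.

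The named falls with IAA began from a 5-day level above every Mock library. MA_10115334g0010 read 9.75, 6.42 and 11.1 CPM at 5 days, 0.200, 0.689 and 0.392 CPM at 10 days and 0.805, 0.411 and 1.28 CPM at 15 days. Its Mock libraries ranged from 0.0559 to 1.07 CPM, so that from 10 days the IAA and Mock ranges overlapped. The fall was 10.7-fold in depth-scaled reads (log2 change -3.46 ± 0.43 SE, edgeR adjusted p = 3.1e-07). With BAP it rose instead, from 4.07, 6.77 and 5.95 CPM to 17.6, 16.2 and 23.5 CPM (1.75 ± 0.34 SE, edgeR adjusted p = 0.00062), and with both hormones it was at 27.1, 30.8 and 29.0 CPM at 5 days and 33.8, 65.4 and 38.3 CPM at 15 days. MA_5158339g0010 fell with IAA from 5.67, 7.27 and 24.4 CPM to 0.345, 0.763 and 3.57 CPM (-3.04 ± 0.88 on the log2 scale, edgeR adjusted p = 0.0075, and 0.077 without IAA 5 days replicate 3). In Mock it went from 0.923, 0.840 and 0.730 CPM to 0.244, 0.125 and 0 CPM. That change of -2.60 ± 1.74 did not pass (edgeR adjusted p = 0.54).

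**Figure D4:**
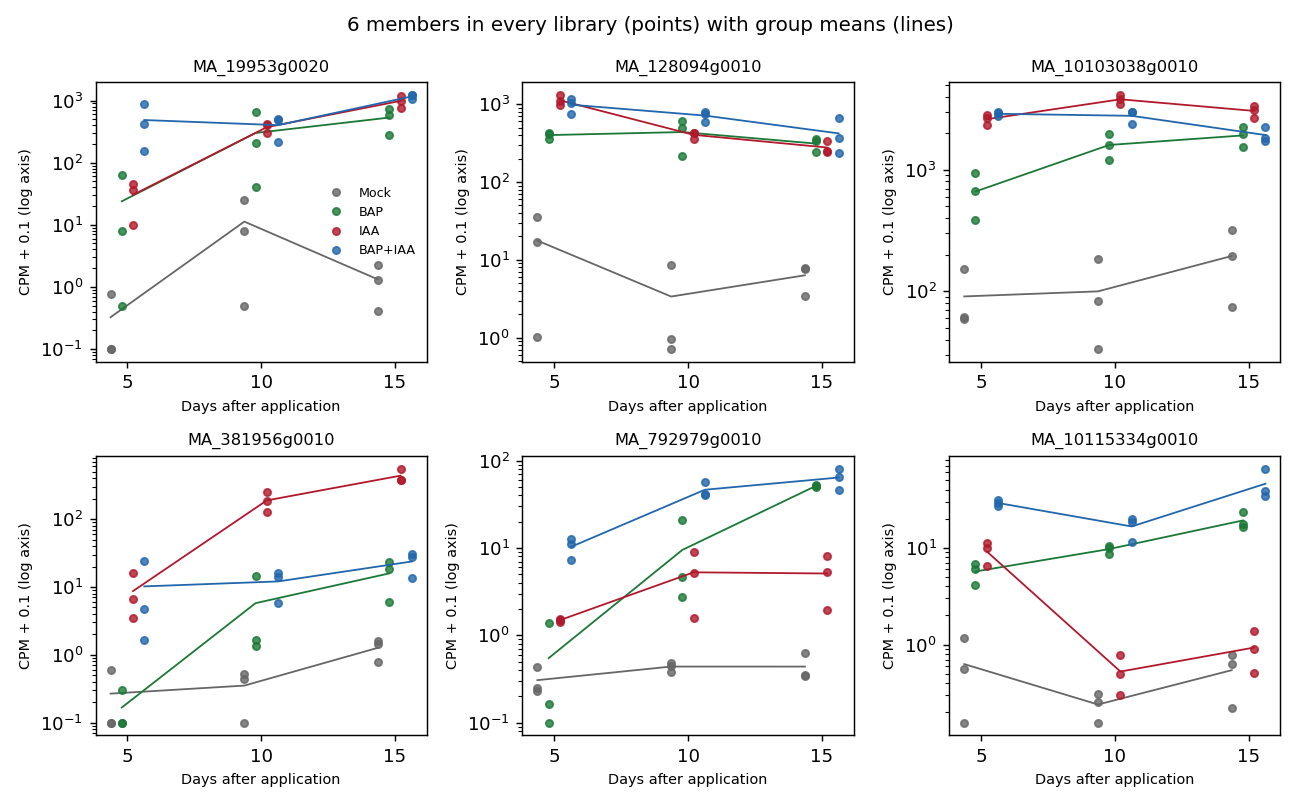
CPM plus 0.1 (log axis) of 6 named members in every library (points) against days after application, with lines through the group means. MA_19953g0020 and MA_381956g0010 climb with BAP and IAA, MA_792979g0010 climbs with BAP and BAP+IAA, and MA_10115334g0010 drops with IAA to values that overlap the Mock libraries, from 9.75, 6.42 and 11.1 CPM to 0.805, 0.411 and 1.28 CPM.

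With BAP+IAA fewer members passed the test than with either hormone alone. From 5 to 15 days 32 rose (10.7% of all tested) and 7 fell (10.2% of all), 161 were not called, and the median change was 0.38 on the log2 scale. The number that fell was 2 without BAP+IAA 15 days replicate 1 or 5 days replicate 2, and 1 without 15 days replicate 2. All 3 libraries of 15 days lay above those of 5 days for 64 members (20.2% of all gene models) and below for 32 (18.2% of all).

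At 10 days 12 members had risen with both hormones (4.79% of all) and 6 had fallen (3.81% of all), with a median change of -0.37. That count of 18 was 9 without BAP+IAA 10 days replicate 1 or 5 days replicate 2, and 11 without 5 days replicate 3 or 10 days replicate 3. The number that fell was 16 without 10 days replicate 2, whose member median of 28.2 CPM stood above the 24.4 and 16.2 CPM of the other libraries of that group.

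MA_10307468g0010 rose with BAP+IAA from 1.77, 0.377 and 0.666 CPM to 120, 39.7 and 72.7 CPM, an 88.1-fold rise in depth-scaled reads (log2 change 6.38 ± 1.05 SE, edgeR adjusted p = 0.00015). Only 2 reads, in 1 library, were counted for it in the 9 Mock libraries. In the other direction, MA_5278g0010 fell 19.99-fold with BAP+IAA, from 475, 404 and 250 CPM at 5 days through 47.1, 106 and 100 CPM at 10 days to 8.18, 23.7 and 24.3 CPM at 15 days (log2 change -4.35 ± 0.45 SE, edgeR adjusted p = 1.9e-07). At the last day it overlapped Mock, where it read 5.13, 13.1 and 5.83 CPM. With IAA it fell from 204, 148 and 86.1 CPM to 30.5, 20.4 and 27.4 CPM (-2.49 ± 0.41 SE, edgeR adjusted p = 2.9e-05), while with BAP it read 97.2, 127 and 90.0 CPM at 5 days and 157, 176 and 99.6 CPM at 15 days (0.46 ± 0.39 SE, edgeR adjusted p = 0.44).

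The same day changes were tested in Mock hypocotyls, where the median member stood at 0.743, 1.45 and 1.29 CPM at 5, 10 and 15 days. At such low counts fewer changes can pass, so the Mock calls are not a like-for-like background for the treated groups. From 5 to 15 days 1 member rose (1.07% of all tested) and 1 fell (0.617% of all). No member passed from 5 to 10 days in either direction by edgeR (0.0418% and 0.0523% of all tested rose and fell), where 18 higher and 5 lower had an unadjusted edgeR p under 0.05, and DESeq2 called 9 higher and 1 lower. All 3 libraries of 15 days lay above those of 5 days for 28 members (10.4% of all gene models) and below for 7 (9.02% of all). The Mock count from 5 to 15 days was 0 without Mock 5 days replicate 1 or 15 days replicate 2, 1 without 5 days replicate 2, and 4 without 15 days replicate 1 or 5 days replicate 3.

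The 1 member that rose in Mock was MA_501223g0010, from 0.264, 1.07 and 1.46 CPM to 3.48, 5.94 and 3.74 CPM (log2 change 2.20 ± 0.49 SE, edgeR adjusted p = 0.018). The call was lost without Mock 5 days replicate 1 or 2 (adjusted p = 0.153 and 0.054, edgeR) or 15 days replicate 2 (adjusted p = 0.126, edgeR). The 1 that fell was MA_92793g0010, from 2.51, 2.98 and 1.96 CPM to 0.550, 0.563 and 0.523 CPM (-2.16 ± 0.46 SE, edgeR adjusted p = 0.011, but 0.056 without 5 days replicate 1 and 0.065 without 15 days replicate 2). Under treatment the latter kept a level of 3.99 to 18.6 CPM in all 27 libraries.

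The differences between treatments in the change from 5 to 15 days were then tested directly, in the same edgeR fit. For IAA against BAP, 82 members had a change that was lower with IAA (8.47% of all tested) and 6 had a higher one (9.8% of all), with a median difference of -1.59 on the log2 scale. The number higher was 3 without BAP 5 days replicate 3. For BAP+IAA against BAP, 72 had a lower change with both hormones (2.13% of all tested) and 2 a higher one (1.43% of all), with a median of -2.08. These counts share the BAP libraries and cannot be added up. Both also contain the BAP change from 5 to 15 days, so, like the BAP counts, they are partly a product of the choice. The total of 74 fell to 41 without BAP 5 days replicate 1 or BAP+IAA 5 days replicate 3, 47 without BAP 5 days replicate 2 or BAP 15 days replicate 3, 48 without BAP 15 days replicate 2 and 49 without BAP+IAA 15 days replicate 1. The number higher was 1 without each of the last 2 of these and without BAP+IAA 5 days replicate 3 or BAP 5 days replicate 3.

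For BAP+IAA against IAA the difference ran both ways, with 15 members higher (5.14% of all tested) and 26 lower (7.12% of all) and a median of -0.07. The number lower was 17 without BAP+IAA 15 days replicate 2 or IAA 5 days replicate 3. The plot of percentages called sets these counts beside the background.

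**Figure D5:**
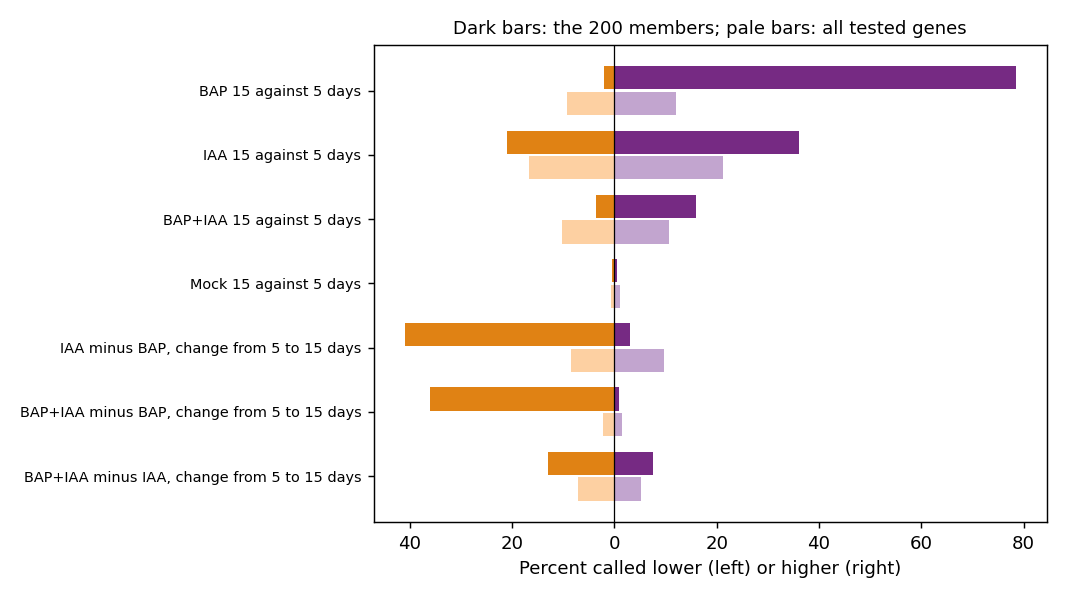
Percent of the 200 members (dark bars) and of all tested gene models (pale bars) called higher (right) or lower (left) at an edgeR adjusted p under 0.05, for the changes from 5 to 15 days and for the differences between treatments in that change. The dark bar for BAP reaches 78.5% against 12.1% of all tested, and the dark bars for IAA and BAP+IAA lie closer to their pale ones.

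The members that rose with 1 treatment were read against the others in contrasts that share no library. Of the 157 that rose with BAP, 29 also rose with BAP+IAA (18.5% of the BAP list and 90.6% of the 32 that rose with BAP+IAA), 5 fell and 123 were not called. Of the 4617 gene models that rose with BAP in the whole table, 1664 (36.04%) also rose with BAP+IAA, a larger share than among the members. With IAA, 66 of the 157 rose (42.0% of the BAP list and 91.7% of the 72 that rose with IAA) and 31 fell (19.7% of the BAP list and 73.8% of the 42 that fell with IAA). Of the 4617 in the whole table, 1984 (43.0%) rose with IAA, a share near that of the members, and 355 (7.69%) fell. These differences in share were not tested.

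Gene models that answered only 1 hormone strongly were set beside the set, without a test of the difference. Of 102 models with a log2 response of at least 2 to BAP and to BAP+IAA but under 1 to IAA, 75.5% rose with BAP from 5 to 15 days, near the 78.5% of the members. With BAP+IAA 48.0% of these models rose, with a median change of 1.45, against 32 of 200 members and a median of 0.38. Of 215 models with such a response to IAA and to BAP+IAA but under 1 to BAP, 17.2% rose with BAP, and with IAA 21.4% rose and 39.5% fell. With BAP+IAA 18.6% of these 215 models rose and 29.8% fell, against 16% and 3.5% of the members. The shares that rose with BAP were thus near each other in the members and in the models raised by BAP without IAA. The share that rose with BAP+IAA was 16% in the members, 48.0% in the models raised by BAP without IAA and 18.6% in those raised by IAA without BAP.

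The members varied among themselves in more than their size. Over the 12 group means, the median Pearson correlation between pairs of members was 0.81 across 19900 pairs, a value that includes the shared difference from Mock by which the members were chosen. Over the 9 treated groups alone it was 0.48, and 18.4% of pairs had a correlation below 0. The day of the highest mean with IAA was 5 days for 40% of members, 10 days for 25% and 15 days for 35%, close to the 40.4%, 21.8% and 37.8% of all gene models. With BAP+IAA it was 5 days for 39%, 10 days for 5.5% and 15 days for 55.5%, against 35.7%, 24.7% and 39.7% of all.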

How the data were processed

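The deposited table holds whole-number read counts per gene model for 36 libraries. Per the submitters' processing notes, the authors used Trimmomatic, STAR and HTSeq; no source used here gives their versions, the build and annotation, or how strand was treated. Column names carry a treatment, a collection number and a replicate number; collections 1 to 3 were read as 5, 10 and 15 days. The members, comparisons and naming rule were chosen with earlier results of these data known.

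CPM were computed from column sums. Day changes were tested on the deposited counts with edgeR 4.0.16 (limma 3.58.1, R 4.3.3): filterByExpr, TMM factors (0.94 to 1.07), 12 group means, robust glmQLFit and two-sided glmQLFTest, with 24 residual degrees of freedom and Benjamini-Hochberg adjustment over 38239 gene models. The procedure was tested on simulated data. Alternatives were RLE factors, total counts, no filter, DESeq2 1.42.0, a replicate block and leaving out each library. Libraries had 12531117 to 22280720 counts, and no columns were identical. Counting intervals (exact binomial on reads scaled by depth, 95%) cover counting error only. The SE beside a log2 change was worked back from the edgeR test, as the absolute change divided by the square root of the F statistic. It is not a standard error given by the fit.

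Named members were the 2 with the largest and the 2 with the smallest weakest response, the one with the highest treated mean, up to 2 rises and 2 falls per treatment from 5 to 15 days, and the largest called difference in each direction between treatments. A named rise or fall had to be called, with no overlap between days and a mean of at least 1 CPM. MA_140902g0010 was added after its values were seen. No genome or gene annotation was used, and no sequence is shown.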

Additional observations from a re-analysis of the deposited data

Results flagged for a closer look

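A total of 6 results were singled out because the change from 5 to 15 days differed between treatments by a test of that difference (edgeR quasi-likelihood, Benjamini-Hochberg adjusted over all tested gene models). They are the largest called differences in each direction for each pair of treatments, given as values with no explanation.

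Between IAA and BAP, MA_7216485g0010 changed by 10.37 ± 1.84 (SE) more with IAA on the log2 scale (edgeR adjusted p = 0.00028). It read 0, 3.54 and 1.01 CPM with BAP at 5 days and 0.473, 6.50 and 2.22 CPM at 15 days, so those groups overlapped, and its fitted change with IAA started from 6 reads. In MA_6385864g0010 the difference was -6.63 ± 1.06 (edgeR adjusted p = 5.9e-05): it rose with BAP from 0.160, 0.248 and 0.541 CPM to 5.88, 3.59 and 8.07 CPM and fell with IAA from 7.42, 4.53 and 4.49 CPM to 0.345, 1.17 and 1.42 CPM.

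Between BAP+IAA and BAP, MA_10426909g0020 changed by 3.16 ± 0.66 more with both hormones (edgeR adjusted p = 0.0070). It started lower, at 1.5, 0.691 and 0.718 CPM against 5.27, 3.17 and 5.81 CPM with BAP, and ended at 28.1, 30.3 and 43.5 CPM against 22.2, 15.9 and 18.5 CPM. MA_394599g0010 had the opposite difference, -6.42 ± 1.04 (edgeR adjusted p = 0.00098). With BAP it went from 0.239, 0 and 0.879 CPM to 14.05, 51.1 and 56.1 CPM, while with both hormones it read 39.1, 122 and 111 CPM at 5 days and 131, 94.3 and 118 CPM at 15 days.

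Between BAP+IAA and IAA, MA_5158339g0010 changed by 5.08 ± 1.14 more with both hormones (edgeR adjusted p = 0.0036), where it read 22.8, 9.93 and 6.77 CPM at 5 days and 20.7, 28.5 and 113 CPM at 15 days. MA_83505g0010 changed by -5.60 ± 0.88 (edgeR adjusted p = 9.6e-05). It rose in both, from 1.38, 0.314 and 0.982 CPM to 198, 162 and 221 CPM with IAA and from 1.77, 8.61 and 7.996 CPM to 35.7, 24.3 and 30.6 CPM with both hormones.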

How the results depend on the processing

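The number of gene models past all 3 limits, 223, depended on the 0.5 CPM added to both means. It was 479 with 0.1 CPM and 144 with 1 CPM, and 144 of the 200 members passed the latter. With the median in place of the mean of 9 libraries it was 190, of which 143 were among the 200. Leaving out 1 library gave 200 to 253, and at least 185 of the 200 members still passed, the fewest without BAP 15 days replicate 2.

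Of 458 alternatives for counts, 387 stayed within 1.5-fold. The members that fell with BAP+IAA were 4 without the filter from 5 to 15 days, and 11 by DESeq2 from 5 to 10 days. In Mock from 5 to 15 days the replicate block called 6 members, 5 higher, and DESeq2 15, 12 higher and 3 lower. In Mock from 5 to 10 days the replicate block called 1, higher, and DESeq2 10, 9 higher and 1 lower.

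Leaving out each library in turn gave these ranges of members called, higher and lower. From 5 to 15 days they were 134 to 160, 130 to 158 and 1 to 6 with BAP; 101 to 105, 62 to 68 and 33 to 42 with IAA; 28 to 36, 26 to 31 and 1 to 6 with BAP+IAA. In Mock they were 0 to 4, 0 to 3 and 0 to 1. From 5 to 10 days they were 11 to 81, 11 to 80 and 0 to 1 with BAP, and 83 to 93, 52 to 61 and 28 to 38 with IAA. With BAP+IAA they were 9 to 25, 7 to 10 and 1 to 16, and in Mock 0 to 1, 0 to 1 and 0. For the differences they were 78 to 94, 3 to 6 and 73 to 91 for IAA against BAP; 41 to 83, 1 to 2 and 39 to 81 for BAP+IAA against BAP; 28 to 36, 10 to 15 and 17 to 24 for BAP+IAA against IAA. The cause was not tested.

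Of 256 alternatives for the named members, 241 kept their call and 15 lost it, all named beside the result, and 0 turned direction. Libraries with the same replicate number did not all deviate together: the median correlation was 0.05, and 59 of 198 pairs were over 0.1. However, 23 of 36 libraries correlated best with their own number. The labels do not say what the number stands for, and the main fit did not include it. With the replicate block as a hint only, members called were 163 with BAP, 118 with IAA and 43 with BAP+IAA from 5 to 15 days, and 86, 110 and 19 from 5 to 10 days; for the differences they were 96, 76 and 44. Depth limits the members that began at under 3 reads per library, whose fitted changes carry wide counting intervals.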
